A study of Mus musculus with 12 samples.

Results

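The respiratory chain is built from products of the nuclear and the mitochondrial genome, and 96 of its genes were followed here in mouse bone marrow-derived dendritic cells (BMDC). Members were the protein-coding genes whose symbols begin with Nduf, Uqcr, Atp5 or Cox4 to Cox8, and the protein-coding genes of the mitochondrial chromosome, without pseudogenes, provided that their mean expected count over the 12 libraries was at least 10. Of the 55335 genes listed, 103 fitted the symbols and 96 met the count. Of these, 83 are nuclear and 13 are mitochondrially encoded. The nuclear members comprise 36 genes grouped with complex I, 8 complex I assembly factors, 8 genes of complex III, 14 of complex IV and 17 grouped with ATP synthase, also called complex V. The 7 genes left out were Cox4i2, Cox6a2, Cox7b2, Cox8b, Cox8c, Ndufa4l2 and a further identifier of Atp5o, with mean expected counts from 0 to 0.667, whereas the members nearest the limit were Cox7a1 with 15.2 and Cox6b2 with 21. All 96 members passed the filter on low counts. In the annotation 24 of the 83 nuclear members overlap another protein-coding gene, among them Ndufs1, Ndufs3, Ndufb8, Uqcrc2, Cox4i1, Cox6c, Atp5a1, Atp5d and Atp5f1, and reads of the shared stretches are uncertain.

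The cells were grown for 6 days from C57BL/6 marrow with GM-CSF, a cytokine that yields dendritic cells, with fresh medium every 2 days, and CD11c+ cells were selected with beads. All 4 groups carried CreER at Rosa26, a tamoxifen-inducible recombinase, with intact Ctcf (Ctcf wt/wt), and the methods describe 4-hydroxytamoxifen in the cultures from the first day. WT was untreated, and WTL received lipopolysaccharide (LPS, a bacterial membrane component) at 100 ng/ml for 3 h. WT + JSH23 received JSH-23, an inhibitor of NF-κB nuclear entry, at 100 µM for 3 h. WTL + JSH23 received both, and the study describes JSH-23 as given before LPS. Each group had 3 libraries, with between 24664724 and 34837847 expected counts in a library. Solvent controls for JSH-23 are not mentioned for WT and WTL, and the JSH-23 libraries are numbered 1 to 3 and the others 4 to 6, so that a difference in culture or preparation cannot be told apart from JSH-23. The labels do not say whether libraries of a group came from separate mice, so the p values measure the spread between these libraries. All 10 dendritic cell markers exceeded 1 TPM in every library. The 5 erythroid markers summed to at most 0.33 TPM in any library. Of 9 neutrophil markers 5 exceeded 1 TPM in every library, with S100a9 at a mean of 93.8 TPM in WT. The summed level of 10 macrophage markers ran from 3118 to 3238 TPM in WT and 2202 to 2369 in WTL. It ran from 2368 to 2435 in WT + JSH23 and from 1866 to 1939 in WTL + JSH23. C1qb alone had a mean of 1006 TPM in WT, and not every marker followed the sum. Mertk stood at 23.6 TPM in WT and 34.3 in WTL, and Cd68 at 307 TPM in WT and 379 in WT + JSH23. The part of cell composition in the results below was not tested, and in bulk RNA fewer cells of a type and less RNA per cell cannot be told apart.

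Electrons from NADH enter the chain at complex I and pass through ubiquinone to complex III, then through cytochrome c to complex IV, which reduces oxygen. Complexes I, III and IV pump protons across the inner mitochondrial membrane, and complex V uses the gradient to make ATP. The mitochondrial genome encodes the hydrophobic cores of these complexes and is transcribed by its own polymerase, while the remaining subunits and all assembly factors come from the nucleus. Activated dendritic cells and macrophages are known for a shift towards glycolysis.

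The mitochondrially encoded genes lie close together on chromosome M (GENCODE release M21, GRCm38), and some overlap. The end of mt-Atp8 and the start of mt-Atp6, both subunits of the membrane part of complex V, share 43 bases at chrM:7927-7969. The end of mt-Nd4l and the start of mt-Nd4, both membrane subunits of complex I, share 7 bases at chrM:10167-10173. In the stretches shown here, capitals mark the bases that belong to both genes.
mt-Atp8 and mt-Atp6, chrM:7917-7979, plus strand: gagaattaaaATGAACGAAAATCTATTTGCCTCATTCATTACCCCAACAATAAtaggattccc
mt-Nd4l and mt-Nd4, chrM:10157-10183, plus strand: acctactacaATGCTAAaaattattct
On opposite strands, mt-Nd5 and mt-Nd6 overlap by 14 bases, and the sources do not state whether counting used strand. Expected counts of mt-Nd5, mt-Nd6 and mt-Atp8 were whole numbers in every library, so no division of their fragments with a neighbour showed.

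A further limit on the mitochondrially encoded values was a nuclear copy of the mitochondrial genome on chromosome 1. Its pseudogene Gm10925 was identical to mt-Atp6 over all of its 678 bases, and Gm28437 to mt-Co3 over 783 bases. The match of Gm10925 takes in the 43 bases that mt-Atp6 shares with mt-Atp8. The longest identical runs were 681 bases for mt-Co2 with Gm28661, 479 for mt-Co1 with Gm29216, 342 for mt-Nd3 with Gm28438 and 294 for mt-Nd4l with Gm10222. The pseudogene Gm28439 matched mt-Nd4 over 876 bases without a mismatch, the longest match of the 7 pseudogenes. Over its 345 bases, Gm28438 differed from mt-Nd3 at a single base, T3C, counted from 1 at the first base of mt-Nd3 and shown here in capitals because it is the only base in this gene that separates the copies.
mt-Nd3, chrM:9459-9476, plus strand: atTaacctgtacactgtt
Gm28438, the same stretch: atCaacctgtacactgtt
Reads from these genes were divided by the authors' estimation step. The copy held between 84.1% and 89.9% of the combined counts of mt-Atp6, between 72.8% and 88.0% for mt-Co3, between 72.2% and 83.8% for mt-Nd3 and between 68.3% and 78.0% for mt-Nd4l, over all libraries. For mt-Co2 it held between 20.5% and 37.6%, for mt-Co1 between 4.56% and 5.43%, and for mt-Nd4 at most 0.0217%. The copies' counts were therefore also added back to these genes, a setting chosen after the data were seen.

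Levels in untreated cells set the scale. In WT, the mean level of the median nuclear member was 96.6 TPM, a length-corrected transcript abundance on a common scale, against 2583 TPM for the median mitochondrially encoded member. The most abundant nuclear members were Atp5b, the catalytic β subunit of the F1 part of complex V, at 799 TPM, Cox4i1, a regulatory subunit of complex IV, at 623 TPM and Cox8a, another complex IV subunit, at 483 TPM. By group, the medians in WT were 295 TPM for complex IV, 220 TPM for complex V, 150.5 TPM for complex III, 76.8 TPM for complex I and 7.94 TPM for the complex I assembly factors. The median of the assembly factors was thus the lowest of these groups. Among isoforms with tissue-restricted partners, Cox4i1, Cox6a1 and Cox8a were members while Cox4i2, Cox6a2 and Cox8b fell under the count limit, and Cox7a2 and Cox7a2l stood above Cox7a1, which reached 5.33 TPM in WT. Ndufa4, now counted with complex IV, stood at 43.2 TPM in WT.

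Among the mitochondrially encoded genes, levels per length were compared as CPM, counts relative to the TMM-scaled library size, per kilobase of annotated length. With the copies added, mt-Co1, the catalytic subunit of complex IV, led in WT at 8956 ± 358 CPM per kb (SD, n = 3), followed by mt-Co2, which receives the electrons from cytochrome c, at 6041 ± 246, mt-Atp6 at 4988 and mt-Co3 at 4145. As deposited, mt-Atp6 stood at 644 and mt-Co3 at 692 CPM per kb, so that the order of these genes turned on where the shared reads were placed. The complex III subunit mt-Cytb followed at 2667 CPM per kb. The complex I subunits were lower on this scale. They ran from mt-Nd4 at 1821 and mt-Nd1 at 1772 down to mt-Nd6 at 829 and mt-Nd3 at 716. Effective lengths, which count the places where a fragment can start, were 111.8 bases for mt-Nd3, 70.4 for mt-Nd4l and 15.4 for mt-Atp8. Their annotated lengths were 348, 297 and 204 bases, so the rank of these short genes depends on the length used. The 3 complex IV subunits and mt-Atp6 thus exceeded every complex I subunit once the copies were added, as the plot of levels along the chromosome shows.

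**Figure D1:**
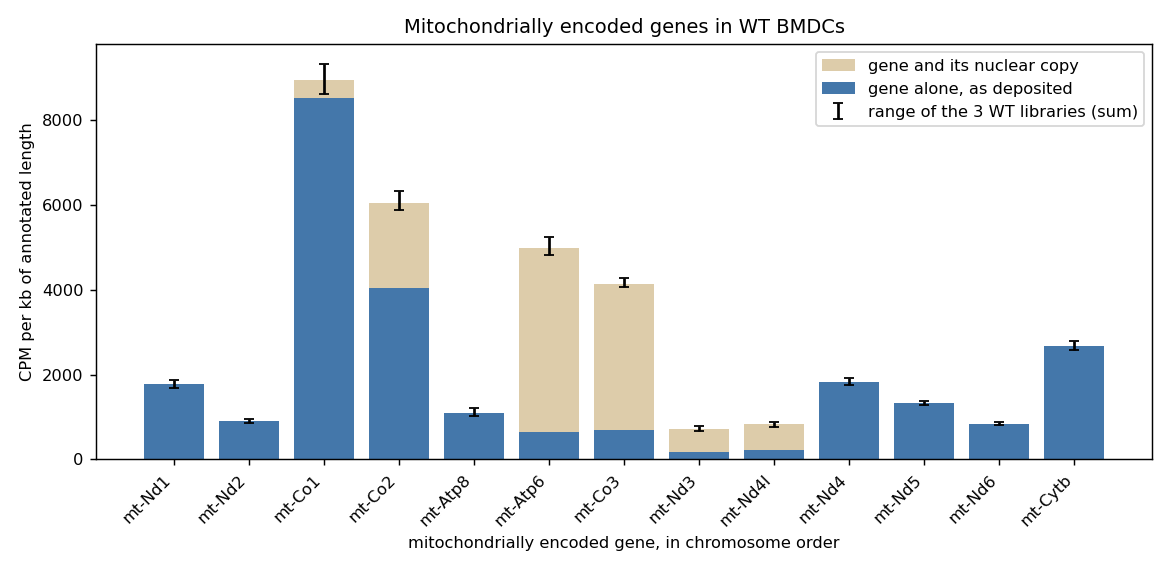
Level of each mitochondrially encoded gene in WT BMDCs, in CPM per kb of annotated length, in chromosome order. Blue bars give the mean of the deposited counts of 3 libraries, tan parts the counts of the near-identical nuclear copy, and lines the lowest and highest sum of both. mt-Atp6 and mt-Co3 rise from 644 and 692 to 4988 and 4145 CPM per kb when the copy is included.

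Nuclear members were next described by the start of the gene. RefSeq promoters of GRCm38.p6, spanning 250 bases before to 50 bases after the start, were on hand for 69 of the 83 nuclear members, as 74 promoters. Both strands were searched for 3 short motifs of factors known to act on respiratory genes. The core CCGGAAG, bound by ETS factors including GABP, was in 21.6% of the members' promoters and in 8.86% of all 32851 promoters of that length. The sequence GCATGCG, a part of the NRF1 motif, was in 16.2% against 3.58%, and the YY1 core AAGATGG was in 14.9% against 6.34%. Any of the 3 was in 43.2% of the members' promoters and in 17.3% of all promoters. GCATGCG is nearly its own reverse complement, so CGCATGCG counts on either strand with an overlap. These are matches of letters, not bound sites. Promoters are shown for 4 members to which the comparisons return, namely the complex IV and V subunits Cox6a1 and Atp5l, the complex I subunit with the highest rise and the assembly factor with the deepest fall, with the matches in capitals.
Cox6a1, chr5:115348909-115349208, minus strand: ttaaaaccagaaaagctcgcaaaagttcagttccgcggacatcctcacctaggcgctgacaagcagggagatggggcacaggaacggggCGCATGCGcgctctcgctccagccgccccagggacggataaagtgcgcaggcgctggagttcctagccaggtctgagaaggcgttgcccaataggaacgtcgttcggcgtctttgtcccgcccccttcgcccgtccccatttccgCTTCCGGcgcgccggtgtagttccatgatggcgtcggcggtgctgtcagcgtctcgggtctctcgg
Atp5l, chr9:44920693-44920992, minus strand: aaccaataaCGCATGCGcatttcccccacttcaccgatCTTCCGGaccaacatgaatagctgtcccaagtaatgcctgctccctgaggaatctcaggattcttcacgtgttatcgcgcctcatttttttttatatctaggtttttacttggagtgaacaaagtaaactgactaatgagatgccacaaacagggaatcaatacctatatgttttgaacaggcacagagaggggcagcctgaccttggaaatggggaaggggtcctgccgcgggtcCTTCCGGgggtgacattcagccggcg
Ndufs4, chr13:114388045-114388344, minus strand: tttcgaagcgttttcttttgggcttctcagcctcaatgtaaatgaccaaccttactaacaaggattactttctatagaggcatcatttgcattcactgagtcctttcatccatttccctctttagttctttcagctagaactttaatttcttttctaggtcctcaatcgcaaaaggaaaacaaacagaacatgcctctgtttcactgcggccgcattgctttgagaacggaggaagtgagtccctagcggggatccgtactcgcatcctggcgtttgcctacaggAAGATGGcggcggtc
Ndufaf4, chr4:24897833-24898132, plus strand: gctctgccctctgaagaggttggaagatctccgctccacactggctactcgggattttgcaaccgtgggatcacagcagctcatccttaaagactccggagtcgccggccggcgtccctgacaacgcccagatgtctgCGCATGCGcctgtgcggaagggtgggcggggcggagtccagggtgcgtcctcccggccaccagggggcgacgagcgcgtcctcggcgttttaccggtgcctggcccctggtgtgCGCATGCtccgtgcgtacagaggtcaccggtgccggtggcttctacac

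The summed share of each class in the library differed with LPS. Nuclear members took 0.452% to 0.457% of all expected counts in WT and 0.397% to 0.409% in WTL, 0.438% to 0.458% in WT + JSH23 and 0.390% to 0.397% in WTL + JSH23. The libraries with LPS lay below those without, with no overlap, with or without JSH-23. Mitochondrially encoded members, without the copies, took 3.00% to 3.19% in WT, 2.77% to 2.93% in WTL, 3.00% to 3.13% in WT + JSH23 and 2.59% to 2.93% in WTL + JSH23. Their summed counts exceeded those of the nuclear members by a factor of 6.53 to 7.45, and these ratios overlapped between groups. Shares depend on everything else in the library, and TMM scaling (trimmed mean of M values), which sets the bulk of genes level between libraries, moved WTL relative to WT, with factors from 0.859 to 0.880 in WTL and from 1.08 to 1.095 in WT. A rise on the TMM scale can therefore be a fall in share. The log2 fold changes that follow are on the TMM scale, the median of all genes on that scale is given beside each comparison, and adjusted p values are from the quasi-likelihood test of edgeR.

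**Figure D2:**
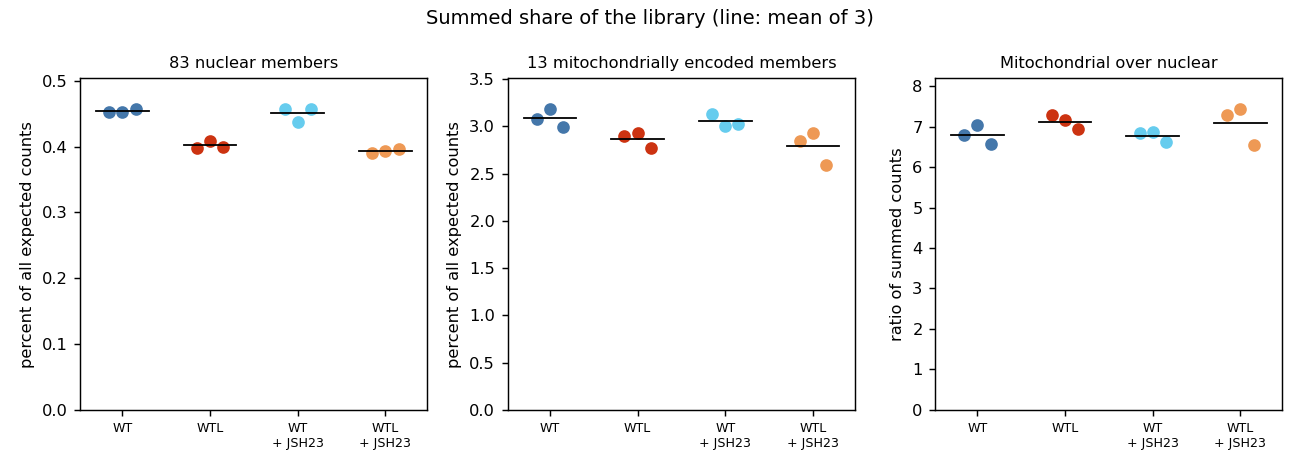
Percent of all expected counts held by the 83 nuclear members (left) and the 13 mitochondrially encoded members (middle), and the ratio of these sums (right), for each library, with lines at the mean of 3. The nuclear share lies between 0.390% and 0.409% in the 6 libraries with LPS and between 0.438% and 0.458% in those without.

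To follow the chain through the LPS response, WTL was compared with WT. On the TMM scale, 34 of 83 nuclear members were higher and 7 lower, where 31.0% of all 14357 genes tested were higher and 34.7% lower. The shares among nuclear members were 41.0% higher and 8.43% lower. Of the 13 mitochondrially encoded members, 11 were higher and none lower by edgeR, nor was any lower at an unadjusted p under 0.05 or by DESeq2, and with the copies added all 13 were higher. The median log2 fold change was 0.10 for nuclear and 0.22 for mitochondrially encoded members, against -0.05 for all genes. With upper quartile scaling 22 nuclear members were higher and 14 lower, with a nuclear median of 0.01 and one of -0.13 for all genes. With limma on log2(TPM + 1), a scale tied to the share of the library, the median of all genes fell by 0.26 and 62 nuclear and 5 mitochondrially encoded members were lower, so the sign of these changes differed between the analyses. All 13 mitochondrially encoded members lay above the median gene on the TMM scale and 11 did on the TPM scale. For nuclear members the numbers were 67 and 44 of 83, and on the TPM scale the nuclear median of -0.24 lay near the -0.26 of all genes. Changes were small. Of all genes, 7.36% rose and 9.09% fell by more than 2-fold, and among the members Ndufaf4 alone did, downwards.

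The subgroups of the chain differed in their counts of calls, set beside 31.0% of all genes higher and 34.7% lower. In complex IV, 11 of 14 genes were higher in WTL, with a median of 0.25 and a lowest value of -0.01, and 14 of 14 lay above the median gene on the TMM scale and 13 of 14 on the TPM scale. In complex V, 11 of 17 were higher and 1 lower, with a median of 0.15, and in complex III 4 of 8 were higher. In complex I, 8 of 36 were higher (22.2%) and 4 lower (11.1%), both under the shares of all genes, with a median of 0.02. Of the 8 complex I assembly factors, 2 were lower (25%, under the share of all genes), and 1 lay above the median gene on either scale.

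Cox6c, a small nuclear subunit of complex IV, stood at 70.9, 70.1 and 70.7 CPM in WT and at 90.7, 95.0 and 88.1 CPM in WTL, a log2 change of 0.37 ± 0.04 (SE, adjusted p = 7.23e-08). Cox7c, another small subunit, stood at 56.3, 57.5 and 55.1 CPM in WT and at 70.9, 73.5 and 72.2 CPM in WTL, a change of 0.36 ± 0.04. For both genes every WTL library lay above every WT library, although on log2(TPM + 1) their changes were -0.05 and -0.03, and reads of both were shared in part with other genes. Cox5a, Cox7a2, Cox6a1, Cox5b, Cox7b and Cox8a rose by 0.29, 0.28, 0.26, 0.24, 0.23 and 0.22 on the TMM scale. Cox4i1 changed by 0.17 ± 0.04 and Cox6b1 by 0.18 ± 0.05, and both passed the test. Cox7a2l, grouped here with complex IV by its symbol, had a value of -0.01 ± 0.04, and Ndufa4 one of 0.08 ± 0.08 with an adjusted p of 0.404. The isoforms Cox6b2, known from testis, and Cox7a1, known from muscle, were rare, with at most 1.08 and 0.900 CPM in any library, and their values were 0.71 ± 0.27 (adjusted p = 0.0271) and 0.39 ± 0.33 (adjusted p = 0.31).

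In complexes III and V, 3 of the 7 core genes fixed as a list were higher and none lower by edgeR, beside 31.0% and 34.7% of all genes. Uqcrfs1, the Rieske iron-sulfur protein of complex III, stood at 74.8, 79.5 and 79.4 CPM in WT and at 104, 105 and 99.7 CPM in WTL, a change of 0.41 ± 0.04 (adjusted p = 1.85e-08). On log2(TPM + 1) its change was 0.07. The complex III core proteins Uqcrc1 and Uqcrc2 changed by 0.05 and 0.04 and did not pass the test. Atp5b stood at 516, 526 and 516 CPM in WT and at 638, 650 and 640 CPM in WTL, a change of 0.31 ± 0.03. Its partner Atp5a1, the α subunit of F1, changed by 0.15 ± 0.03 and also passed, whereas the central stalk genes Atp5c1 and Atp5d had changes of -0.03 ± 0.04 and 0.10 ± 0.05. Of the 3 genes for the c subunit of the rotor ring, Atp5g3 rose by 0.18 ± 0.04 while Atp5g1 and Atp5g2 had values of -0.04 and -0.06. Among the 7 core genes the only negative value was that of Atp5c1.

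Complex I was mixed. Ndufs4, an accessory subunit needed for a stable NADH-oxidising arm, stood at 27.0, 28.7 and 26.5 CPM in WT and at 35.9, 37.0 and 36.0 CPM in WTL, a change of 0.41 ± 0.05 (adjusted p = 2.83e-07). Ndufa1, a membrane-arm accessory subunit, rose by 0.32 ± 0.05, and Ndufa7 by 0.24 ± 0.06. On log2(TPM + 1) Ndufs4 changed by 0.12 and Ndufa1 by -0.06. Ndufs3, a core subunit of the peripheral arm, stood at 25.9, 24.95 and 25.8 CPM in WT and at 21.7, 21.5 and 22.2 CPM in WTL, a change of -0.23 ± 0.05. Every WTL library of Ndufs3 lay below every WT library, and the change on log2(TPM + 1) was -0.58, although the gene overlaps Kbtbd4. Ndufv3, Ndufb8 and Ndufs8 fell by 0.22, 0.20 and 0.18. Among nuclear core subunits of complex I, Ndufs3 and Ndufs8 were lower, and Ndufs1, Ndufs7, Ndufv1 and Ndufv2 did not pass, with values between -0.03 and 0.10.

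The member with the deepest fall was Ndufaf4, a factor for the early assembly of complex I. Its level is under the 10 CPM set for naming, and it was picked out after its values were seen. It stood at 5.78, 6.15 and 3.93 CPM in WT and at 2.44, 2.50 and 2.21 CPM in WTL, a change of -1.15 ± 0.15 (adjusted p = 8.09e-07). WT replicate 6 was the lowest of its group, and leaving out each library in turn gave changes from -1.32 to -1.03. Ndufaf6, another assembly factor, fell by 0.77 ± 0.20 from at most 1.88 CPM in WT and Atp5s, a gene grouped by symbol with complex V, by 0.70 ± 0.20. Ndufaf8, by contrast, had a value of 0.26 ± 0.12 with an adjusted p of 0.0702.

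The mitochondrially encoded genes with no copy found, or with one that held few counts (mt-Co1 and mt-Nd4), changed by 0.14 to 0.29. mt-Nd1 stood at 1678, 1787 and 1621 CPM in WT and at 2059, 1999 and 1870 CPM in WTL, a change of 0.22 ± 0.05 (adjusted p = 0.000694). mt-Cytb stood at 3010, 3192 and 2953 CPM in WT and at 3613, 3576 and 3451 CPM in WTL, a change of 0.22 ± 0.04. In both, every WTL library lay above every WT library on the TMM scale, and on log2(TPM + 1) both changed by -0.12. The changes were 0.21 for mt-Nd2, 0.14 for mt-Nd4, 0.16 for mt-Nd5, 0.29 for mt-Nd6 and 0.28 for mt-Atp8, all past the test. mt-Co1 changed by 0.20 ± 0.04, and with the copy by 0.20 as well.

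Where the copies held most of the counts, the deposited values scattered. mt-Co3 stood at 547, 613 and 467 CPM in WT and at 524, 1007 and 771 CPM in WTL, which overlap, a change of 0.50 ± 0.20. With the copy added, the 3 WT libraries held 3198, 3353 and 3199 CPM and the WTL libraries 3906, 3883 and 3598 CPM, a change of 0.22 ± 0.05 with no overlap. For mt-Nd3 the change was 0.02 ± 0.16 as deposited and 0.28 ± 0.07 with the copy, and for mt-Nd4l it was 0.09 ± 0.08 and 0.18 ± 0.05. mt-Atp6 changed by 0.35 ± 0.11 and by 0.27 ± 0.05, and mt-Co2 by 0.37 ± 0.06 and by 0.30 ± 0.05. Adding the copies thus narrowed the range of the LPS changes of the 13 genes from 0.02 to 0.50 down to 0.14 to 0.30. The ribosomal RNAs of the mitochondrion moved alongside: mt-Rnr1 and mt-Rnr2 were higher by 0.45 and 0.62, and together they took 0.378% to 0.384% of counts in WT and 0.409% to 0.481% in WTL. The sources differ on how ribosomal RNA was removed, and its part in these values was not tested.

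**Figure D3:**
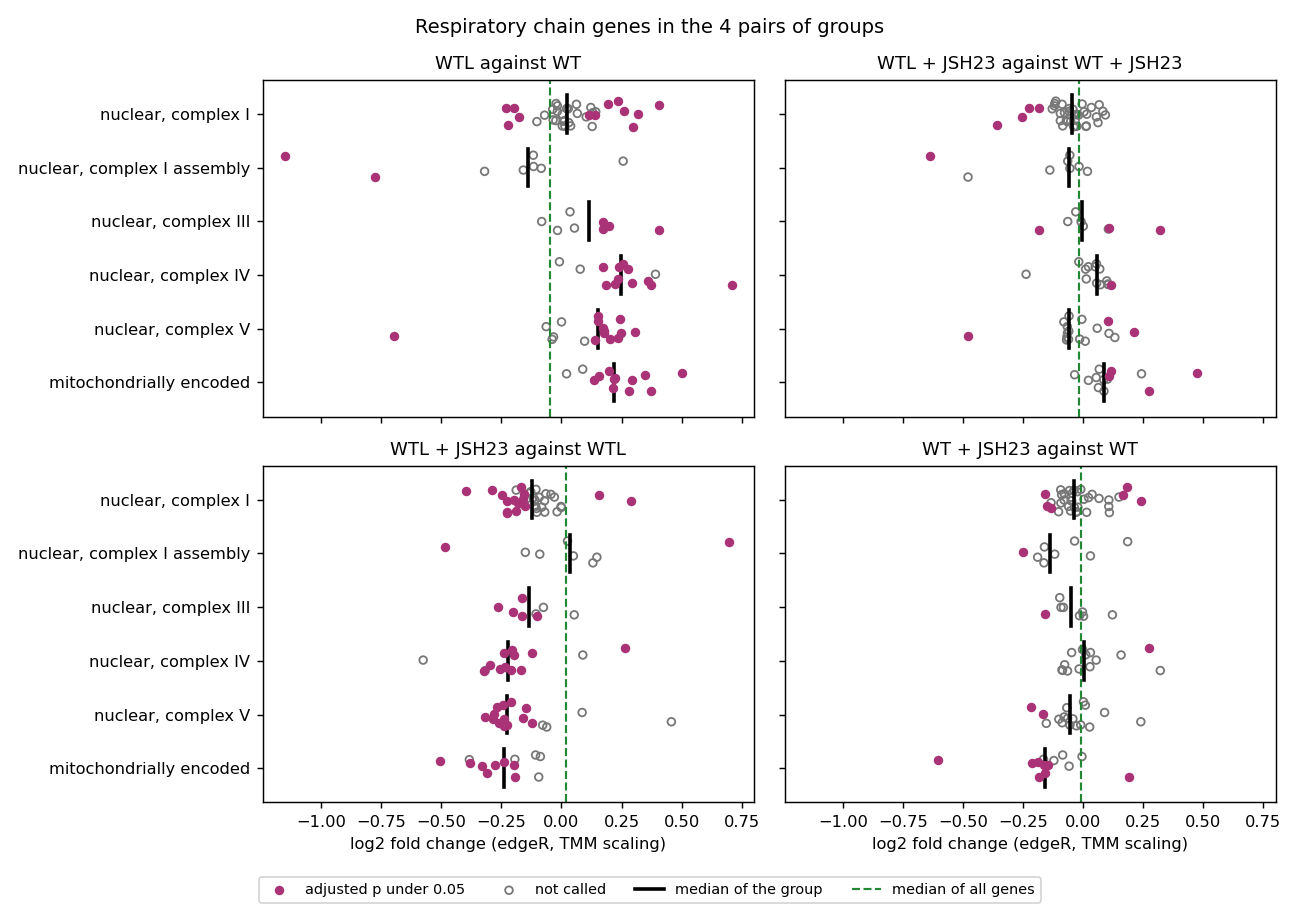
Log2 fold change of every member in the 4 pairs of groups (edgeR, TMM scaling), by complex, with filled points for an adjusted p under 0.05, black bars for the median of each row and a green dashed line for the median of all genes. In WTL against WT the bars of complex IV and of the mitochondrially encoded genes stand at 0.25 and 0.22, and in WTL + JSH23 against WTL the nuclear median of all 83 genes is -0.15.

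The same question was asked with JSH-23 present, by comparing WTL + JSH23 with WT + JSH23. Of the nuclear members 5 were higher and 7 lower, where 27.4% of all genes were higher and 27.1% lower. With upper quartile scaling 2 were higher and 26 lower, and with DESeq2 size factors 8 and 7. Of the mitochondrially encoded members 4 were higher and none lower by edgeR, nor was any lower at an unadjusted p under 0.05 or by DESeq2. The medians were -0.03 for nuclear and 0.09 for mitochondrially encoded members and -0.02 for all genes. More than 2-fold, 5.85% of genes were higher and 4.49% lower, while the change of widest extent among members was that of Ndufaf4, which fell by 0.64. On log2(TPM + 1), 64 nuclear members were lower and 1 was higher, and 23 of 83 lay above the median gene, against 38 on the TMM scale.

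A few members kept a rise in the presence of JSH-23. Uqcrfs1 stood at 78.1, 74.8 and 78.2 CPM in WT + JSH23 and at 94.6, 95.3 and 98.8 CPM in WTL + JSH23, a change of 0.32 ± 0.04, which was 0.11 on log2(TPM + 1) and passed on either scale. Atp5b rose by 0.21 ± 0.03, Cox6c by 0.12 ± 0.04 and Atp5a1 by 0.10 ± 0.03, though the last 2 changed by -0.15 and -0.12 on log2(TPM + 1). Ndufv3, Ndufs8, Ndufs3, Ndufb8 and Uqcr10 fell by 0.36, 0.25, 0.22, 0.18 and 0.18. Of the 14 complex IV genes Cox6c alone passed the test. Among mitochondrially encoded genes with no copy found, mt-Atp8 and mt-Nd5 were higher by 0.27 and 0.11. Of those with a copy, mt-Co1 was higher by 0.12 and mt-Co3 by 0.47. Once its copy was added, mt-Co3 had a value of 0.03 ± 0.05. With its copy mt-Nd4l was higher by 0.18 ± 0.05 (adjusted p = 0.00502), against 0.07 as deposited, which did not pass. The values of mt-Nd3 were 0.24 as deposited and 0.01 with the copy, and those of mt-Atp6 -0.04 and 0.08, none of which passed. Without WTL + JSH23 replicate 1 the nuclear calls were 9 higher and 6 lower. The count of 4 mitochondrially encoded calls ran from 1 to 8 when libraries were left out. It was 1 without WTL + JSH23 replicate 1, 8 without WTL + JSH23 replicate 3, and 2 without WTL + JSH23 replicate 2 or WT + JSH23 replicate 2 or 3.

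Whether the change with LPS differed with JSH-23 was tested by the interaction, the difference between the LPS changes of JSH-23-treated and other cells. Of all genes, 9.54% passed with an interaction above 0 and 8.44% with one below 0. Of the nuclear members 13 had a lower one and none a higher one by edgeR, with 1 higher at an unadjusted p under 0.05 and none by DESeq2. These 13 were 6 complex IV genes (Cox5a, Cox5b, Cox6c, Cox7a2, Cox7b and Cox7c), 4 complex V genes (Atp5e, Atp5g3, Atp5h and Atp5l) and 3 complex I accessory subunits (Ndufa1, Ndufa7 and Ndufs4). Their values ran from -0.35 to -0.19. Of the mitochondrially encoded members, mt-Co2 and mt-Nd6 had a lower LPS change, by 0.29 and 0.27, and none had a higher one by edgeR, by DESeq2 or at an unadjusted p under 0.05. The median of the interaction was -0.10 for nuclear, -0.08 for mitochondrially encoded and 0.03 for all genes, and of the 14 complex IV genes none lay above the median gene on the TMM scale and 1 did on the TPM scale. On log2(TPM + 1), with a median of all genes of 0.11, 2 nuclear members had a lower and 1 a higher LPS change. The count of 13 fell to 7 without WT + JSH23 replicate 1, WT replicate 4 or WTL replicate 5, and to 8 without WT + JSH23 replicate 3, WTL + JSH23 replicate 1 or WTL replicate 4. The count of 2 fell to 0 without WT + JSH23 replicate 1 or 3, WT replicate 4 or WTL replicate 4 or 5, and to 1 without WT replicate 6 or WTL + JSH23 replicate 1.

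Among these genes, Ndufs4 had the interaction with the lowest adjusted p. With JSH-23 it stood at 27.0, 25.4 and 26.6 CPM without LPS and at 28.0, 28.1 and 26.6 CPM with it, which overlap, against the separate groups described above without JSH-23. The interaction was -0.34 ± 0.07 (adjusted p = 0.00201), and on log2(TPM + 1) it was -0.38 and passed as well. Cox6c stood at 68.8, 64.7 and 68.7 CPM in WT + JSH23 and at 72.5, 72.7 and 74.0 CPM in WTL + JSH23, with an interaction of -0.26 ± 0.06. Uqcrfs1, whose rise passed with and without JSH-23, had an interaction of -0.09 ± 0.06 with an adjusted p of 0.35. The plot of LPS changes without and with JSH-23 marks the called members, which an interaction below 0 places under the line of equal change by definition.

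**Figure D4:**
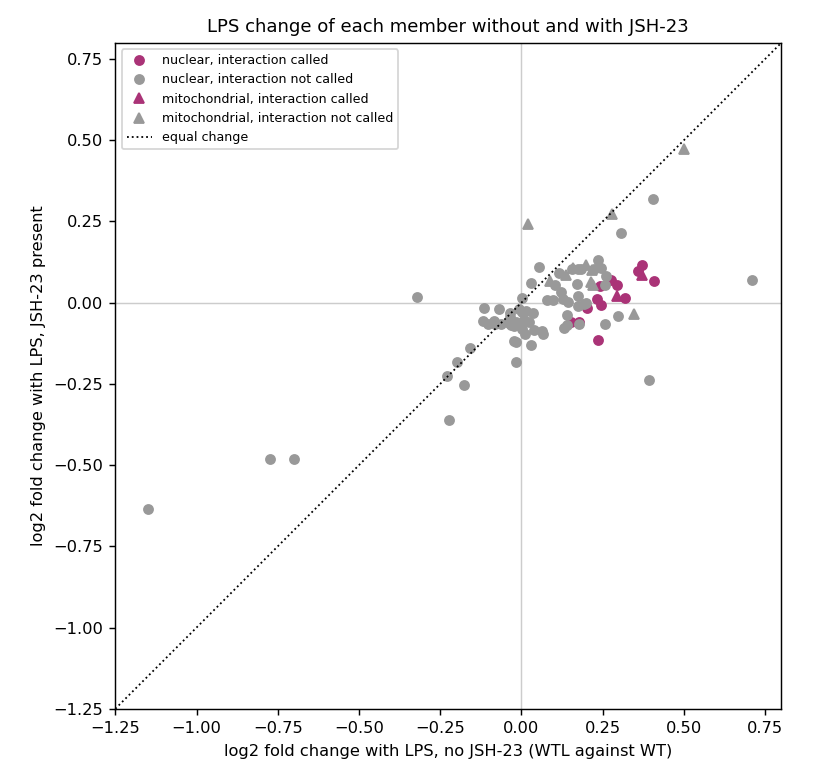
LPS change of each of the 96 members without JSH-23 (horizontal) and with JSH-23 (vertical), as log2 fold changes on the TMM scale. Circles are nuclear, triangles mitochondrially encoded, coloured points the 13 nuclear and 2 mitochondrially encoded members with a called interaction, and the dotted line marks equal change. The called points lie below the line by definition, since all had an interaction below 0.

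In LPS-treated cells, the members were then compared between WTL + JSH23 and WTL. Here 43 of 83 nuclear members were lower and 4 higher, where 24.2% of all genes were lower and 24.5% higher. Of the mitochondrially encoded members 8 were lower and none higher by edgeR, by DESeq2 or at an unadjusted p under 0.05, and with the copies added 12 were lower. The medians were -0.15 for nuclear, -0.24 for mitochondrially encoded and 0.02 for all genes. Of all genes, 3.25% were lower and 3.75% higher by more than 2-fold, while the change of widest extent among members was a rise of 0.70 in Ndufaf4. On log2(TPM + 1) the median of all genes was 0.10 and 12 nuclear members were lower and 5 higher. Above the median gene lay 12 of 83 nuclear members on the TMM scale and 13 on the TPM scale, and no mitochondrially encoded member on either.

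By complex, 13 of 17 genes of complex V, 10 of 14 of complex IV, 5 of 8 of complex III and 14 of 36 of complex I were lower. The 8 assembly factors had 1 call each way. Beside these counts and those of the core lists stood 24.2% of all genes lower and 24.5% higher. Ndufs4 fell by 0.40 ± 0.05, Cox6c by 0.32 ± 0.04, Cox7b by 0.30 ± 0.05 and Ndufb3 by 0.29 ± 0.09. Atp5g3 stood at 110, 114 and 105 CPM in WTL and at 86.7, 90.6 and 87.1 CPM in WTL + JSH23, a change of -0.32 ± 0.04 on the TMM scale and -0.19 on log2(TPM + 1), past the test on either. Atp5a1 fell by 0.27 ± 0.03 and Atp5b by 0.16 ± 0.03. Of the core lists, 4 of 7 complex I genes and 5 of 7 complex III and V genes were lower, and every value in these lists was negative.

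The other 4 nuclear calls went the other way. Cox7a2l stood at 149, 155 and 145 CPM in WTL and at 180, 177 and 185 CPM in WTL + JSH23, a change of 0.26 ± 0.04 (adjusted p = 5.09e-06). Ndufa6, an accessory subunit of complex I, rose by 0.29 ± 0.07, and Ndufab1, the mitochondrial acyl carrier protein that is also a complex I subunit, by 0.16 ± 0.06. Ndufaf4, the last of them, stood at 3.97, 4.10 and 3.59 CPM in WTL + JSH23, above every WTL library, and rose by 0.70 ± 0.16. Reads of Cox7a2l and Ndufab1 were shared in part with other genes.

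Of the mitochondrially encoded genes, mt-Nd1 stood at 1561, 1601 and 1390 CPM in WTL + JSH23, below every WTL library, and fell by 0.38 ± 0.05 (adjusted p = 2.2e-06). The falls were 0.33 for mt-Nd6, 0.31 for mt-Nd2, 0.28 for mt-Cytb, 0.24 for mt-Nd5, 0.20 for mt-Nd4 and 0.19 for mt-Atp8. mt-Co1 had a value of -0.09 ± 0.04 that did not pass, with 15646, 15335 and 14408 CPM in WTL and 14549, 15029 and 13131 CPM in WTL + JSH23, which overlap. mt-Atp6 fell by 0.50 ± 0.11 as deposited, the deepest fall of the 13, and by 0.18 ± 0.05 with its copy. With the copies added, mt-Nd3 fell by 0.48, mt-Co3 by 0.25, mt-Co2 by 0.19 and mt-Nd4l by 0.17, and their deposited values of -0.38, -0.19, -0.09 and -0.11 did not pass. The mitochondrial ribosomal RNAs did not follow, with mt-Rnr1 higher by 0.19 and mt-Rnr2 by 0.20.

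Without LPS, JSH-23 was set against untreated cells. In WT + JSH23 against WT, 7 nuclear members were lower and 4 higher, where 22.1% of all genes were lower and 18.8% higher. Of the mitochondrially encoded members 7 were lower and 1 higher, and with the copies added 8 were lower and the highest value was 0.01, that of mt-Co2. The medians were -0.04 for nuclear, -0.16 for mitochondrially encoded and -0.01 for all genes on the TMM scale, and -0.05, -0.15 and -0.01 on log2(TPM + 1). The nuclear calls were 5 higher and 4 lower without WT + JSH23 replicate 2 and 7 in all without WT replicate 6, and the mitochondrially encoded calls fell to 4 without WT replicate 5. Of all genes, 2.94% were lower and 2.43% higher by more than 2-fold, while the change of widest extent among members was that of mt-Nd3, which fell by 0.60 as deposited and by 0.22 with its copy.

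The rises were in Cox7a2l, Ndufa6, Ndufa7 and Ndufab1. Cox7a2l stood at 153, 149 and 151 CPM in WT and at 179, 181 and 188 CPM in WT + JSH23, a change of 0.27 ± 0.04 (adjusted p = 3.24e-06), and Ndufa6 rose by 0.24 ± 0.06. These 2 genes thus differed with JSH-23 whether or not LPS was present, and their interactions were -0.01 ± 0.05 and 0.05 ± 0.09. Atp5a1 fell by 0.22 ± 0.03, Atp5f1, a stator subunit of complex V, by 0.17 ± 0.04, Uqcrc1 and Ndufs3 by 0.16 and Ndufs1, the largest core subunit of complex I, by 0.15. Among mitochondrially encoded genes with no copy found, mt-Nd1 stood at 1536, 1430 and 1419 CPM in WT + JSH23 and fell by 0.21 ± 0.05. In the same set, mt-Nd5, mt-Atp8, mt-Cytb and mt-Nd2 fell by 0.19, 0.19, 0.16 and 0.16. The gene mt-Nd4, whose copy held few counts, fell by 0.15. mt-Co1 had a value of -0.01 ± 0.04, as deposited. mt-Co2 was higher by 0.19 as deposited but had a value of 0.01 ± 0.05 with its copy. With its copy mt-Nd4l fell by 0.17 ± 0.05, and its deposited value of -0.09 did not pass.

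Nuclear and mitochondrially encoded medians were set side by side as a description. The mitochondrially encoded median exceeded the nuclear one by 0.12 in the LPS comparison and by 0.11 in the LPS comparison with JSH-23, and lay below it by 0.09 and 0.12 in the JSH-23 comparisons with and without LPS. Leaving out each library in turn kept the sign in these 4 pairs, with ranges of 0.09 to 0.17, 0.09 to 0.18, -0.12 to -0.04 and -0.15 to -0.09. In the interaction the medians of the deposited counts differed by 0.01, with a range of -0.03 to 0.04 that spans 0. With the copies added, the mitochondrially encoded median of the interaction was -0.15, the value of mt-Nd2. It then lay below the nuclear median by more than that range.

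**Figure D5:**
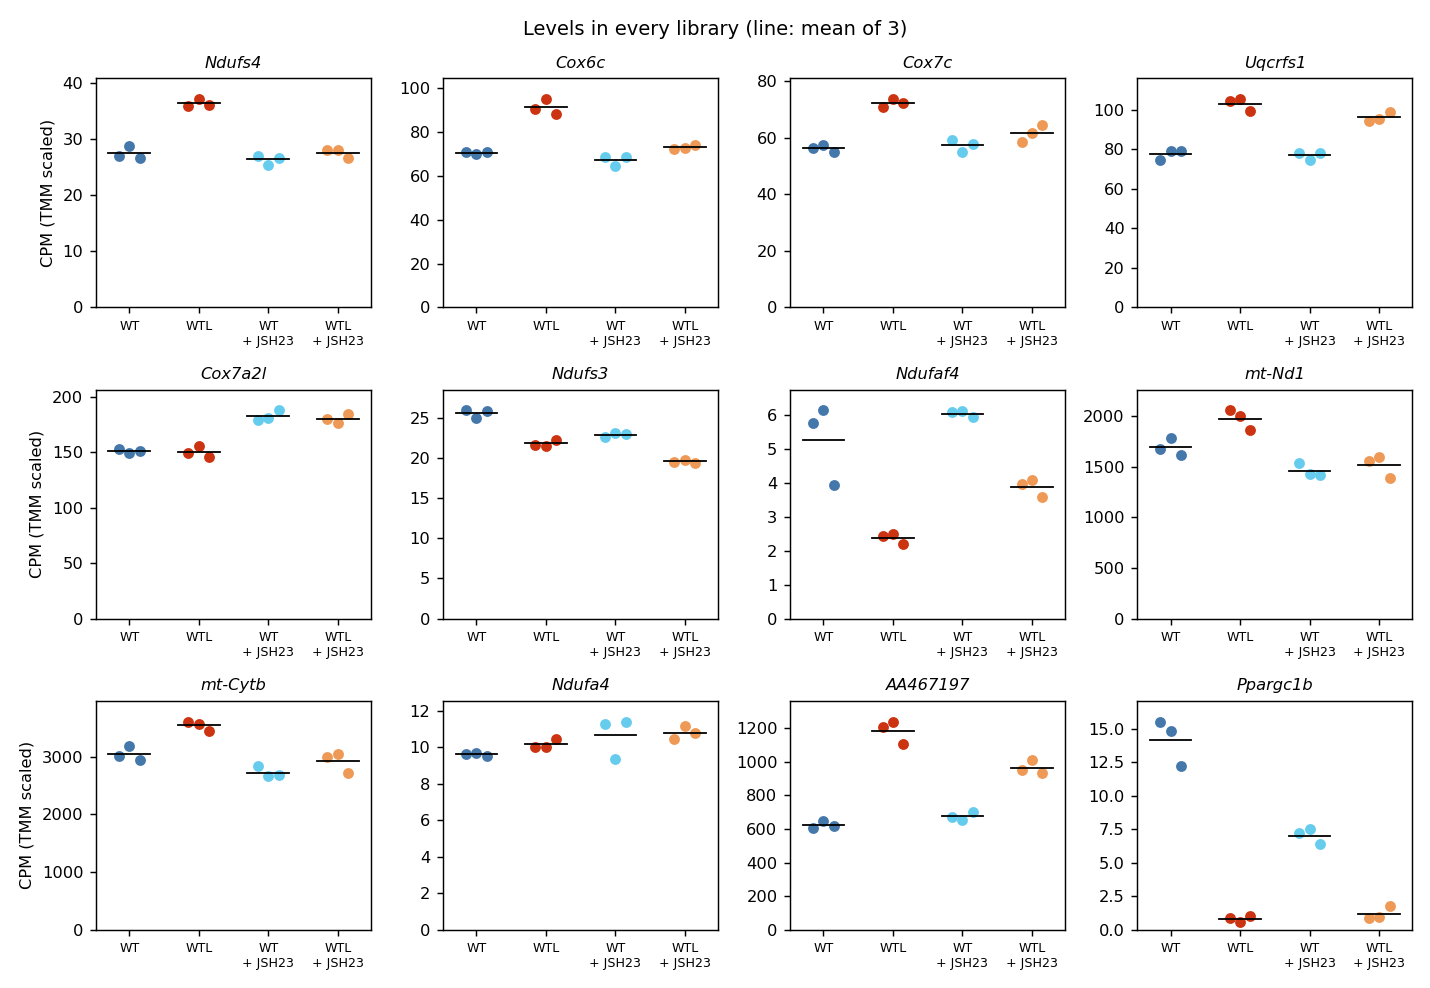
Level of 10 members and of the regulators AA467197 and Ppargc1b in every library, in TMM-scaled CPM from 0, with lines at the mean of 3 libraries. Ndufs4, Cox6c and Cox7c stand highest in WTL alone, Cox7a2l in the 2 groups with JSH-23, and Ndufaf4 and Ppargc1b lowest with LPS.

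Genes outside the rule that act on the chain were followed by lists. AA467197, the mouse gene of the small protein NMES1 that has been described as an LPS-inducible partner of complex IV, stood at 604, 648 and 618 CPM in WT and at 1209, 1239 and 1102 CPM in WTL. It rose by 0.92 ± 0.05 (adjusted p = 1.28e-13), and by 0.58 on log2(TPM + 1). With JSH-23 it rose by 0.52 ± 0.05, and the interaction was -0.41 ± 0.06. Ndufa4, the complex IV subunit it resembles, had values of 0.08 ± 0.08 and 0.01 ± 0.08 in these comparisons. Cycs, the electron carrier cytochrome c, stood at 77.4, 79.0 and 78.4 CPM in WT and at 109, 105 and 104 CPM in WTL. Its change was 0.44 ± 0.04 on the TMM scale and 0.20, which did not pass, on log2(TPM + 1). Its partner in complex III, Cyc1, had a value of 0.08 ± 0.05.

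The nuclear regulators split. Ppargc1b, a coactivator of mitochondrial biogenesis, stood at 15.5, 14.8 and 12.2 CPM in WT and at 0.852, 0.600 and 1.06 CPM in WTL, a change of -4.12 ± 0.19, and it fell by 2.602 ± 0.19 with JSH-23 and by 1.02 ± 0.12 with JSH-23 alone. Nrf1, Gabpa and Pprc1, factors and a coactivator known to act on respiratory genes, were higher with LPS by 0.25, 0.31 and 0.30 on the TMM scale, of which the value of Pprc1 was -0.15 on log2(TPM + 1). Hif1a, the oxygen-responsive factor, rose by 1.00 and Myc fell by 1.01. Of the 9 regulators tested, 6 were higher and 3 lower in WTL. In the machinery of the mitochondrial genome, 9 of 30 genes were higher and 9 lower, beside 31.0% and 34.7% of all genes, and those lower included the polymerase Polrmt, which fell by 0.64 ± 0.08, the packaging factor Tfam by 0.23 ± 0.07, the helicase Twnk by 1.15 ± 0.14 and Fastkd1, of a family of mitochondrial RNA-binding proteins, by 1.18 ± 0.13. The mitochondrially encoded genes and Polrmt thus had opposite signs on the TMM scale. In WTL + JSH23 against WTL, the genes of this machinery past 2-fold were Pnpt1, an RNA-degrading enzyme, which fell by 1.07 ± 0.05, and Polg2, a polymerase subunit, which fell by 1.00 ± 0.23. Polg2 also fell by 1.08 ± 0.22 in WTL + JSH23 against WT + JSH23.

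The remaining lists are given by their counts in WTL against WT, where 31.0% of all genes were higher and 34.7% lower. Of the 4 genes of complex II, which has no mitochondrially encoded subunit, Sdhc was higher by 0.13 and Sdhb and Sdhd lower by 0.12, while Sdha had a value of 0.05. Of 41 assembly factors outside the rule 8 were higher and 19 lower, and of 11 genes of ubiquinone synthesis 1 was higher and 5 lower. Mitochondrial ribosomal proteins had 10 of 78 higher and 28 lower, and 19 genes used as a gauge of mitochondrial mass had 12 higher and 1 lower. Of 13 isoform genes tested, 8 were higher, and of 8 chain modulators 3 were higher and 2 lower. In WTL + JSH23 against WTL, complex II had 3 of 4 genes lower, and the lists of assembly factors and mitochondrial ribosomal proteins had 8 higher and 13 lower each, where 24.5% of all genes were higher and 24.2% lower.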

How the data were processed

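RNA-seq was analysed for 12 libraries. The authors trimmed reads with Trim Galore and, per the labels, aligned them to mm10 with STAR 2.6.0c, after which RSEM quantified the genes of a GENCODE annotation. The annotation release was not given in the sources used here, and the study's reporting summary names another patch release of STAR. The deposited expected counts are estimated fragments per gene, with shared fragments divided between genes (fractional for 25 of 83 nuclear and 7 of 13 mitochondrially encoded members), and the deposited TPM values were made by the authors from them. The labels name ribosomal RNA depletion and the methods poly(A) selection, which was not settled. Symbols and positions came from GENCODE M21, matched by 55154 of 55335 identifiers.

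Expected counts were rounded, filtered with filterByExpr to 14357 genes, scaled by TMM and fitted over all libraries with one mean per group (8 residual degrees of freedom) by the quasi-likelihood F-test of edgeR 4.0.16 in R 4.3.3, two-sided, with Benjamini-Hochberg adjustment over all genes. Members were called at an adjusted p under 0.05, with 2-fold calls beside. DESeq2 1.42.0 and limma 3.58.1 on log2(TPM + 1), with a pseudocount of 1, were alternatives, as were other scalings, no filter, fits of the compared groups alone, a replicate block, and leaving out each library. CPM are per TMM-scaled library. Standard errors came from the size of the change over the root of its F statistic. Correlations between same-numbered libraries of the LPS pairs were all positive but weak, from 0.0142 to 0.0614. All lay under the limit of 0.1, so numbers were not taken as pairs. No pair of libraries held identical values, and the code was tested on simulated data. Nuclear copies were aligned with blastn 2.17.0+, at 98% identity or more over at least 100 bases. Only annotated transcripts were searched, so shorter or unannotated matches would not be found.

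Named genes were every mitochondrially encoded member, the lists of nuclear core subunits and of isoforms, for each pair of groups up to 5 rises and 5 falls (interaction, 3 each way) by size among nuclear members with an adjusted p under 0.05, a mean of 10 CPM or more in the group where they were higher, and no overlap of libraries, and genes of the other lists past 2-fold or fixed by name. Some genes of these lists are not reported here by name. Other members named in the text were chosen after their values were seen. Members and lists were chosen with earlier results of these data known.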

Additional observations from a re-analysis of the deposited data

Results flagged for a closer look

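The size of the LPS response differed with JSH-23, by the interaction test of edgeR at an adjusted p under 0.05, for 15 members and 7 other genes of the lists. Values are the log2 LPS change with JSH-23 minus that without, on the TMM scale. In complex I these were -0.35 for Ndufa7, -0.34 for Ndufs4 and -0.30 for Ndufa1, and in complex IV -0.26 for Cox7c, -0.26 for Cox6c, -0.24 for Cox5a, -0.22 for Cox7b, -0.21 for Cox7a2 and -0.19 for Cox5b. In complex V they were -0.25 for Atp5e, -0.24 for Atp5g3, -0.22 for Atp5l and -0.21 for Atp5h. The mitochondrially encoded members were mt-Co2 with -0.29 and mt-Nd6 with -0.27, and with its nuclear copy added mt-Co2 had -0.20. All of these members rose with LPS on the TMM scale when JSH-23 was absent.

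Outside the rule, AA467197 had -0.41, Pnpt1 -0.34, Nrf1 -0.29 and Cycs -0.20, while Polrmt had 0.53, Fastkd1 0.64 and Ppargc1b 1.52. All 3 fell with LPS alone. With JSH-23 present, Fastkd1 fell by 0.54 and Ppargc1b fell by 2.602 on the log2 scale, and Polrmt had a change of -0.11 with an adjusted p of 0.232 (edgeR). The level of Ppargc1b without LPS was 12.2 to 15.5 CPM in WT and 6.36 to 7.52 CPM in WT + JSH23. The part of this difference in its interaction was not tested. Groups of 3 libraries were not searched for single deviating libraries.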

How the results depend on the processing

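Among values for named genes all 22 reversals came with limma on log2(TPM + 1), which changes the test, the input and the scaling together. There the LPS comparison called 62 nuclear and 5 mitochondrially encoded members, all lower; that with JSH-23 65 (64 lower) and 2 (both lower); JSH-23 in LPS 17 and 5; JSH-23 alone 5 mitochondrially encoded; and the interaction 3 and 0. On that scale the LPS changes of Cox6c, Cox7c, Ndufa1, Pnpt1 and Pprc1 reversed to -0.051, -0.026, -0.058, -0.15 and -0.15, and those of mt-Atp6, mt-Atp8, mt-Co1, mt-Cytb, mt-Nd1, mt-Nd2, mt-Nd4, mt-Nd5 and mt-Nd6 to -0.012, -0.14, -0.14, -0.12, -0.12, -0.13, -0.20, -0.18 and -0.071. With JSH-23 present, Atp5a1, Cox6c, Cycs, Pprc1, mt-Atp8, mt-Co1 and mt-Nd5 reversed to -0.12, -0.15, -0.046, -0.063, -0.060, -0.093 and -0.10, and with JSH-23 alone Ndufab1 to -0.046. As percent of TPM, the shares were 1.28, 1.12, 1.24 and 1.08 for nuclear and 7.62, 7.06, 7.28 and 6.82 for mitochondrially encoded members in WT, WTL, WT + JSH23 and WTL + JSH23. The effective length of mt-Atp8, by which its TPM is divided, ran from 13.3 to 17.7 bases. Without mt-Atp8 the mitochondrially encoded shares were 5.26, 4.91, 5.09 and 4.72 in the same order.

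In the LPS comparison with JSH-23, nuclear calls numbered 28 (2 higher) with upper quartile scaling and 15 (8 higher) with DESeq2 size factors, and mitochondrially encoded calls 1 with upper quartile scaling and 2 with the compared groups alone. JSH-23 alone gave 7 nuclear calls with DESeq2 and with no filter. The interaction gave 20 nuclear calls with DESeq2 size factors, and 4 mitochondrially encoded calls with no filter. With copies added, the mitochondrially encoded median minus the nuclear one was -0.055 in the interaction. Past 2-fold there was 1 nuclear call in the LPS comparison, lower, and 0 elsewhere. With the replicate block the interaction gave 4 mitochondrially encoded calls, and the block changed no other call count by over 1.5 times. Leaving out each library in turn gave 31 to 40 nuclear and 8 to 11 mitochondrially encoded calls for LPS, 9 to 15 and 1 to 8 with JSH-23, 34 to 45 and 8 to 10 for JSH-23 in LPS, 7 to 10 and 4 to 8 for JSH-23 alone, and 7 to 16 and 0 to 3 for the interaction. In the paired check, 1 of the 6 libraries without LPS, WT + JSH23 replicate 1, correlated best with another number. The rest correlated best with their own number, as a hint from the data alone. The cause of these changes was not tested. Of 122 values for named genes, DESeq2 kept 112 and removal of chromosome M from the scaling all. With 3 libraries a group, changes of the size of the standard errors given were not detectable.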
